A study of Sus scrofa with 13 samples.

Results

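The basement membrane genes described here were 10 symbols taken by name: the laminin chains LAMA2, LAMA4, LAMA5, LAMB1, LAMB2 and LAMC1, the linkers NID1 and NID2, and the heparan sulphate proteoglycans HSPG2 (perlecan) and AGRN (agrin). Of these, 8 had an Ensembl gene identifier in the count tables of both breeds, which hold 25322 identifiers in all, and LAMA2 and LAMA5 were not analysed here. The question addressed was whether their transcript levels in loin muscle differed between pigs with a heavy and a light loin of the same breed. RNA-seq of longissimus lumborum, the back muscle that forms the loin, covered 13 unrelated female pigs aged 6 months, kept under the same housing and feeding. They formed 4 groups: Hampshire with low loin weight (pigs 1, 2 and 3), Hampshire with high loin weight (pigs 8, 9 and 10), Pietrain with low loin weight (pigs 3, 5 and 8) and Pietrain with high loin weight (pigs 1, 2, 6 and 7). The last group follows the sample labels, which give 4 pigs, whereas the study's table of animals gives n = 3 for it. The pigs carried no treatment, and were picked from a larger population for the extremes of loin weight within their breed.

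A basement membrane is the thin sheet of extracellular matrix that wraps each muscle fibre, capillary and nerve. Laminins are trimers of an alpha, a beta and a gamma chain that assemble into a polymer on the cell surface, where dystroglycan and integrins hold them. Nidogens and perlecan connect the laminin polymer to the collagen IV network, and agrin organises acetylcholine receptors under the motor nerve ending. In mature muscle the alpha 2 chain belongs to the sheath of the fibre, whereas alpha 4 is best known from blood vessels and nerves.

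Total counts per pig ranged from 11312755 to 20134612, and levels are given as CPM, a gene's counts divided by the scaled size of its library. Skeletal muscle transcripts were abundant in all 13 libraries: ACTA1, skeletal actin, took 3.06% to 11.2% of the counts and CKM, muscle creatine kinase, 1.54% to 5.13%. Of 12 listed muscle fibre markers, 6 were found. The others took 1.06% to 6.97% (MYH1), 1.66% to 3.69% (MYL1), 0.185% to 1.12% (NEB) and 0.000591% to 0.698% (MYH7) of the counts. Across genes, the Hampshire log2 fold change (high against low loin weight) was lower for genes with a longer span on the genome (Spearman's rho = -0.386 over 9945 genes, which are not independent replicates), against -0.0893 over 9964 genes in Pietrain. Between breeds rho was -0.215 at low and -0.391 at high loin weight, and -0.337 for the difference of the loin weight effect. Where taking this trend out changes a call of a listed gene, or of a named partner gene in Hampshire, that value is given. NID1 and CHRNE, without coordinates, could not be checked in this way. Also not checked were CD151, DPM1, CHRNA1, the cell type markers, and any partner gene between breeds. The thresholds for a differentially expressed gene (DEG) were 0.05 for the adjusted p and 1.2 for the fold change.

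In Hampshire, 2 of the 8 genes were DEGs between high and low loin weight, and both, LAMA4 and LAMB1, were higher in pigs with high loin weight. The background in this comparison was 26.6% of 12228 genes tested, with 12.0% higher. In 3 of the 8 genes (LAMA4, LAMB1 and NID1) every pig with high loin weight was above every pig with low loin weight, where 45.9% of all genes did not overlap in either direction and 22.4% were higher without overlap. The share of DEGs among the listed genes was thus near that of all genes. Their log2 fold changes ran from -0.52 to 0.73 with a median of 0.21, against 0.03 for all genes tested.

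**Figure D1:**
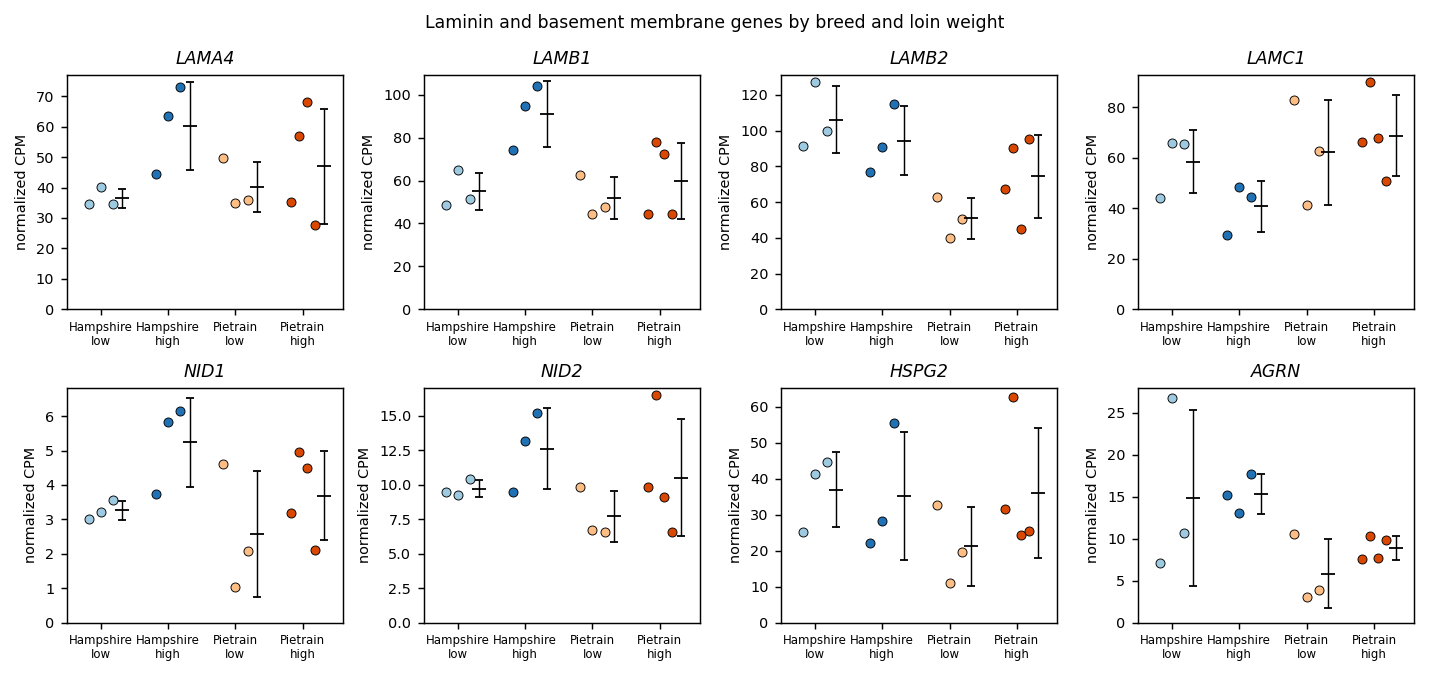
Normalized CPM (vertical axis, linear, from 0) of the 8 genes in each of the 13 pigs, 1 point per pig, by breed and loin weight group; the bar beside the points is the mean with its SD. LAMA4, LAMB1 and NID1 show separate groups in Hampshire, and no gene shows separate groups within Pietrain.

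LAMA4 (ENSSSCG00000004425, chromosome 1 from 87740894 to 87808805 on Sscrofa10.2) encodes the laminin alpha 4 chain. Its level was 34.7, 40.1 and 34.5 CPM in the Hampshire pigs 1, 2 and 3 with low loin weight, and 44.5, 63.4 and 73.0 CPM in pigs 8, 9 and 10 with high loin weight. The low group was tight and the high group was spread, with pig 8 close to the low pigs and pig 10 the highest. The mean rose from 36.4 ± 3.15 to 60.3 ± 14.5 CPM (SD, n = 3 each), with a log2 fold change of 0.73 (SE 0.207, edgeR adjusted p = 0.0326). The adjusted p was 0.0999 when the same contrast was taken from a fit over all 13 pigs, and passed 0.05 in 5 of the 6 fits that left out a pig (log2 fold change 0.55 to 0.88), so that only leaving out pig 8 with high loin weight kept the call. Its log2 fold change was 1.17 with the length trend taken out (edgeR adjusted p = 0.011).

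In Pietrain, LAMA4 stood at 49.7, 34.9 and 36.0 CPM in pigs 3, 5 and 8 with low loin weight and at 35.2, 56.8, 68.2 and 27.6 CPM in pigs 1, 2, 6 and 7 with high loin weight. The high group held both the highest and the lowest value of the breed, and the groups overlapped. The means were 40.2 ± 8.24 CPM (SD, n = 3) and 46.9 ± 18.8 CPM (SD, n = 4). Their difference, 0.25 on the log2 scale (SE 0.308), was not called (edgeR adjusted p = 0.94).

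LAMB1 (ENSSSCG00000015444, chromosome 9 from 118439608 to 118514521), the beta 1 chain, moved with LAMA4 from pig to pig in Hampshire. Its level was 48.7, 64.7 and 51.3 CPM in the pigs with low loin weight and 74.1, 94.6 and 104 CPM in those with high loin weight. The groups did not overlap, and pig 10 was again the highest. Its mean rose from 54.9 ± 8.62 to 90.8 ± 15.2 CPM (SD, n = 3 each), by a log2 fold change of 0.73 (SE 0.191, edgeR adjusted p = 0.0251). The adjusted p was 0.0526 in the fit over all pigs, and leaving out low pig 1 or 3 or high pig 9 or 10 ended the call (log2 fold change 0.61 to 0.85 over the 6 fits). Taking out the length trend gave 1.18 (edgeR adjusted p = 0.00893).

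Pietrain levels of LAMB1 were 62.8, 44.6 and 47.6 CPM with low and 44.4, 78.0, 72.2 and 44.5 CPM with high loin weight. Pigs 1 and 7 of the high group lay at the bottom of the range and pigs 2 and 6 at its top, the same division as for LAMA4. The log2 fold change was 0.24 (SE 0.256, edgeR adjusted p = 0.939).

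LAMB2 (ENSSSCG00000011377, chromosome 13 from 34969985 to 34980934), the beta 2 chain, is concentrated at the neuromuscular junction of the muscle fibre and also lies in vessel walls. In Hampshire it stood at 91.6, 127 and 100 CPM with low loin weight and at 77.0, 90.8 and 115 CPM with high loin weight. The ranges overlapped, and the log2 fold change of -0.17 (SE 0.206, edgeR adjusted p = 0.575) was not called. In Pietrain it stood at 62.6, 39.8 and 50.3 CPM with low loin weight and at 67.2, 90.1, 45.0 and 95.1 CPM with high loin weight. All high pigs except pig 6 were above every low pig, and the log2 fold change of 0.58 (SE 0.284) had an unadjusted p of 0.0683 and an adjusted p of 0.939 by edgeR.

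LAMC1 (ENSSSCG00000015555, chromosome 9 from 136548464 to 136668804) encodes the gamma 1 chain, the gamma chain shared by most laminins of muscle and vessels. Its Hampshire levels were 44.2, 66.0 and 65.4 CPM with low loin weight and 29.4, 48.6 and 44.5 CPM with high loin weight. Here the direction was opposite to that of LAMA4 and LAMB1 in these pigs: low pig 1 lay among the high pigs, and the other low pigs above all of them. Its log2 fold change of -0.52 (SE 0.235) was not called (edgeR adjusted p = 0.13). With the length trend taken out it was 0.01 (edgeR adjusted p = 0.984), and LAMC1 is the gene with the longest span among those with coordinates, 120341 bases.

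In Pietrain, LAMC1 was 82.9, 41.3 and 62.7 CPM with low and 66.4, 90.0, 67.9 and 51.0 CPM with high loin weight. The ranges overlapped and the log2 fold change was 0.17 (SE 0.271, edgeR adjusted p = 0.945).

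NID1 (ENSSSCG00000026819, with no coordinates in the tables used) encodes nidogen 1 and had few reads, 13 to 96 per pig. In Hampshire it stood at 3.00, 3.21 and 3.57 CPM with low and 3.75, 5.82 and 6.14 CPM with high loin weight. The groups did not overlap, but pig 8 exceeded the highest low pig only slightly. The log2 fold change of 0.68 (SE 0.274) was not called (edgeR adjusted p = 0.0935), with an unadjusted p of 0.0344, and passed the threshold without pig 8 (adjusted p = 0.0476). In Pietrain the levels were 4.60, 1.03 and 2.08 CPM with low and 3.18, 4.96, 4.48 and 2.10 CPM with high loin weight, and the fold change on the log2 scale was 0.53 (SE 0.507, edgeR adjusted p = 0.939).

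NID2 (ENSSSCG00000005030, chromosome 1 from 201971913 to 202044999) encodes nidogen 2. Hampshire pigs with low loin weight had 9.49, 9.24 and 10.4 CPM, and those with high loin weight 9.47, 13.2 and 15.2 CPM. Pig 8 lay within the low group and pigs 9 and 10 above it. For NID2 the log2 fold change was 0.38 (SE 0.216, edgeR adjusted p = 0.221), and 0.83 (edgeR adjusted p = 0.0411) with the length trend taken out. Pietrain pigs had 9.85, 6.73 and 6.59 CPM with low and 9.84, 16.5, 9.09 and 6.55 CPM with high loin weight, where pig 2 was far above the others and the log2 fold change was 0.47 (SE 0.326, edgeR adjusted p = 0.939).

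HSPG2 (ENSSSCG00000003514, chromosome 6 from 73920982 to 73947323) encodes perlecan, and varied widely within groups. In Hampshire it was 25.1, 41.3 and 44.5 CPM with low and 22.0, 28.1 and 55.5 CPM with high loin weight, so that the high group held both extremes. Its log2 fold change was -0.06 (SE 0.353, edgeR adjusted p = 0.917). In Pietrain it was 32.7, 11.1 and 19.6 CPM with low and 31.6, 62.6, 24.2 and 25.3 CPM with high loin weight. The log2 fold change of 0.79 (SE 0.421, unadjusted p = 0.0898, adjusted p = 0.939 by edgeR) was larger than that of the other 7 genes in this breed.

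AGRN (ENSSSCG00000022204, chromosome 6 from 57851225 to 57880810) encodes agrin. In Hampshire its levels were 7.10, 26.7 and 10.7 CPM with low and 15.2, 13.0 and 17.7 CPM with high loin weight. Low pig 2 had the highest level of all 13 pigs, and this pig set the spread of its group (14.8 ± 10.4 CPM, SD, n = 3) against that of the high group (15.3 ± 2.36 CPM, SD, n = 3). Its log2 fold change was 0.04 (SE 0.418, edgeR adjusted p = 0.947) and moved from -0.34 to 0.78 as single pigs were left out. In Pietrain the levels were 10.6, 3.09 and 3.83 CPM with low and 7.60, 10.3, 7.66 and 9.85 CPM with high loin weight, where low pig 3 exceeded all high pigs and the other low pigs lay below them. For AGRN in this breed the log2 fold change was 0.63 (SE 0.409, edgeR adjusted p = 0.939).

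None of the 8 genes was a DEG in Pietrain, 0 had an unadjusted p under 0.05 by edgeR, and 0 were DEGs by DESeq2. The background was 0% of 12065 genes tested by edgeR, with 398 genes (3.30%) at an unadjusted p under 0.05 and 1 DEG by DESeq2. Groups without overlap were found in 0 of the 8 genes and in 4.59% of all genes. All 8 log2 fold changes were above 0, between 0.17 and 0.79, with a median of 0.5 against 0.02 for all genes tested. Of all 12065 genes tested, 6318 were above 0. The genes are not independent of each other, and the same pigs stood at the ends for most of them: high pig 2 had the highest level for 5 of the 8 genes and low pig 5 the lowest for 5. Summed over the 8 genes, these pigs had 409 and 183 CPM, and the other 5 Pietrain pigs 229 to 316 CPM.

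In Hampshire the pigs ranked in a similar way. High pig 10 had the highest level for 5 genes and low pig 2 for 3, while low pig 1 and high pig 8 each had the lowest for 3. Exact two-sided permutation tests on the values per pig gave p = 0.1 for LAMA4, LAMB1 and NID1, the smallest p that 3 against 3 pigs allow. For the other 5 Hampshire genes the exact p ran from 0.3 to 0.9, and for the 8 genes in Pietrain from 0.171 to 0.686, where 0.0286 is the smallest possible.

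**Figure D2:**
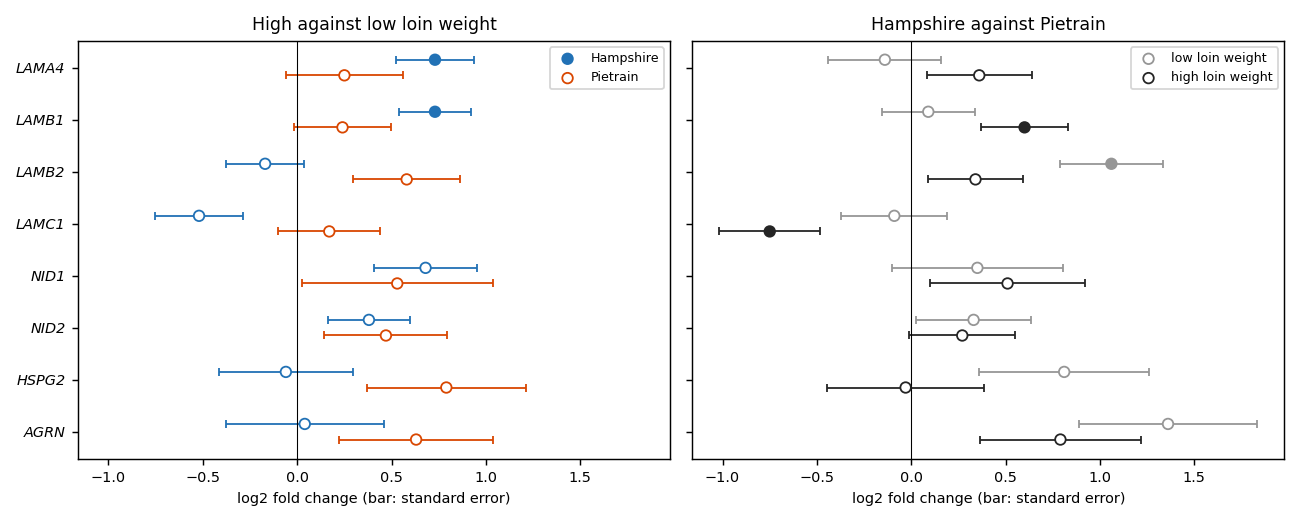
Log2 fold change (horizontal axis) with its SE for each gene, high against low loin weight in each breed (left) and Hampshire against Pietrain at each loin weight (right); filled points are DEGs. On the left only LAMA4 and LAMB1 in Hampshire are filled, and on the right LAMB2 at low and LAMB1 and LAMC1 at high loin weight.

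Whether the effect of loin weight differed by breed was tested directly, in 1 fit over all pigs. The difference was called for 0 of the 8 genes at an adjusted p under 0.05, against 5.90% of 12831 genes. By edgeR 0 of the 8 had an unadjusted p under 0.05, against 22.1% of all genes, and DESeq2 called 0 of the 8. The difference nearest to the threshold was that of LAMB2 (-0.72 on the log2 scale, Hampshire minus Pietrain, SE 0.37, edgeR adjusted p = 0.277), followed by LAMC1 (-0.66, SE 0.386, adjusted p = 0.34). The calls of LAMA4 and LAMB1 in Hampshire alone therefore do not show a difference between breeds: their differences were 0.50 (SE 0.408, edgeR adjusted p = 0.511) and 0.52 (SE 0.337, adjusted p = 0.403), and 1.06 for each with the length trend taken out (adjusted p = 0.114 and 0.0826).

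Pairs of laminin chains, and the 2 nidogens, were also compared as ratios of read counts within each library, which do not depend on how libraries are scaled. These ratios compare pigs, not the amounts of different chains, since the genes differ in length. The ratio of LAMB2 to LAMB1 was 1.88, 1.96 and 1.95 in the Hampshire pigs with low loin weight and 1.04, 0.96 and 1.11 in those with high loin weight. It was nearly constant within each group, and the groups were far apart. How often ratios of other gene pairs separate these groups was not computed. Of single genes, 45.9% did not overlap in this comparison. On the log2 scale the mean was 0.95 ± 0.032 (SD, n = 3) with low and 0.05 ± 0.106 (SD, n = 3) with high loin weight, a difference of -0.90 with an exact permutation p of 0.1, the smallest possible, and 0.2 after adjustment over 4 ratio tests. With the length trend taken out, the difference between the fitted log2 fold changes of LAMB2 and LAMB1 went from -0.894 to -1.39.

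In Pietrain the ratio of LAMB2 to LAMB1 was 0.996, 0.892 and 1.06 with low loin weight. The high group stretched from 0.623 in pig 6 to 2.14 in pig 7, with 1.51 in pig 1 and 1.16 in pig 2. The log2 difference of 0.33 was within this spread (exact permutation p = 0.486, also 0.486 after adjustment).

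Among ratios chosen after the values were seen, and therefore given without a test, LAMC1 to LAMB1 was 0.908, 1.02 and 1.28 in Hampshire pigs with low and 0.397, 0.514 and 0.429 in those with high loin weight. These groups did not overlap, whereas in Pietrain the ratio lay between 0.926 and 1.32 with low and between 0.94 and 1.5 with high loin weight. LAMA4 to LAMB1 stayed within 0.601 to 0.713 in all 6 Hampshire pigs, and the log2 difference between the loin weight groups was -0.02. With the length trend taken out, the fitted difference between LAMC1 and LAMB1 in Hampshire went from -1.24 to -1.17.

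NID1 to NID2 was 0.316, 0.347 and 0.342 in Hampshire pigs with low and 0.396, 0.441 and 0.405 in those with high loin weight. The groups did not overlap, with a log2 difference of 0.30 (exact permutation p = 0.1, adjusted 0.2). In Pietrain the groups overlapped (log2 difference 0.32, exact permutation p = 0.457, adjusted 0.486), and low pig 5 had the lowest ratio, 0.153, from its 13 NID1 reads.

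**Figure D3:**
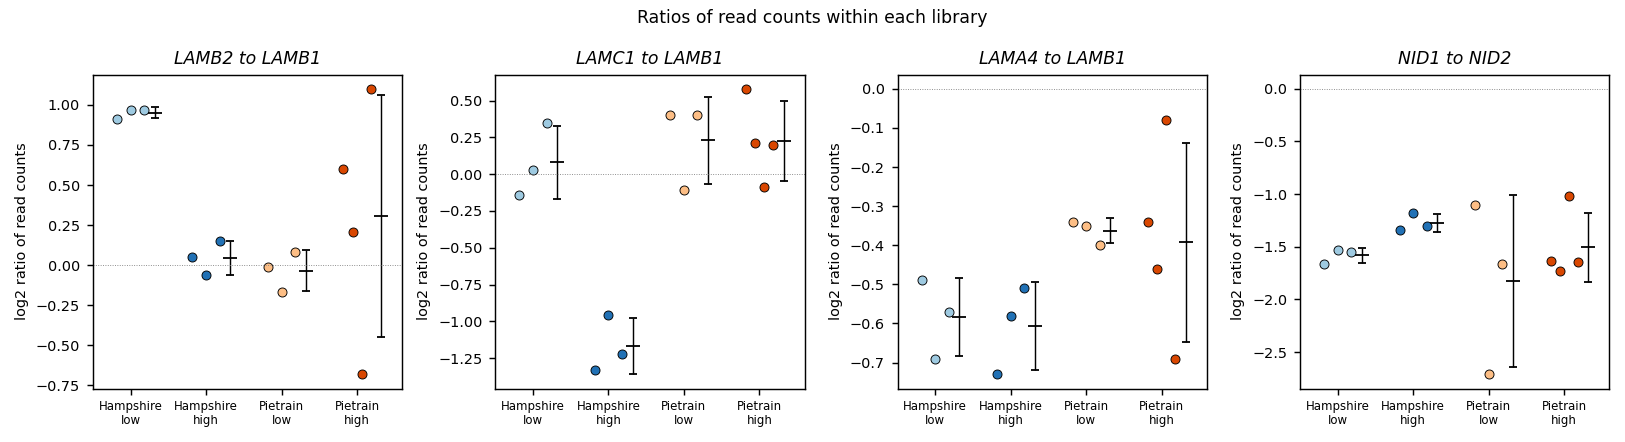
Log2 ratio of read counts within each library (vertical axis, not from 0), 1 point per pig, with mean and SD per group. The Hampshire groups are separate for LAMB2 to LAMB1, LAMC1 to LAMB1 and NID1 to NID2, and overlap for LAMA4 to LAMB1. The rate of separation among ratios of other gene pairs was not computed.

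The breeds were compared at equal loin weight. These 2 comparisons use the same pigs as those within breeds, and breed cannot be told apart from anything else that differed between the 2 deposited tables. At low loin weight 1 of the 8 genes was a DEG, against 17.9% of 12831 genes, with 7.84% of the genes tested higher in Hampshire. LAMB2 was higher in Hampshire (106 ± 18.3 CPM, SD, n = 3) than in Pietrain (50.9 ± 11.4 CPM, SD, n = 3), with a log2 fold change of 1.06 (SE 0.273, edgeR adjusted p = 0.0229). Its lowest Hampshire pig (91.6 CPM) was above its highest Pietrain pig (62.6 CPM), the 1 gene of 8 without overlap, where 42.8% of all genes did not overlap and 21.4% were higher in Hampshire without overlap. The LAMB2 call was lost without low Hampshire pig 2 or 3 or low Pietrain pig 5 or 8 (log2 fold change 0.91 to 1.29, adjusted p up to 0.104).

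AGRN had the larger log2 fold change at low loin weight, 1.36 (SE 0.474), but was not called (edgeR adjusted p = 0.06). Its ranges overlapped, with Hampshire pig 1 (7.10 CPM) below Pietrain pig 3 (10.6 CPM). DESeq2 called it (adjusted p = 0.0244), as did edgeR with the length trend taken out (adjusted p = 0.0308), and its log2 fold change ran from 0.65 without Hampshire pig 2 to 2.15 without Pietrain pig 3. Across the 8 genes the median log2 fold change was 0.34, against 0 for all genes tested.

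At high loin weight 2 of the 8 genes were DEGs, 1 in each direction, against 46.8% of 12831 genes, with 22.6% higher and 24.2% lower in Hampshire. LAMB1 was higher in Hampshire (90.8 ± 15.2 CPM, SD, n = 3) than in Pietrain (59.8 ± 17.8 CPM, SD, n = 4; log2 fold change 0.60, SE 0.229, edgeR adjusted p = 0.0424), with overlapping ranges. LAMC1 was lower in Hampshire (40.9 ± 10.1 CPM, SD, n = 3) than in Pietrain (68.8 ± 16.0 CPM, SD, n = 4; log2 fold change -0.75, SE 0.268, edgeR adjusted p = 0.0324). LAMB1 lost its call without Hampshire pig 9 or 10 or Pietrain pig 1 or 7 (log2 fold change 0.46 to 0.76), and LAMC1 without Hampshire pig 8 or 10 or Pietrain pig 1 or 2 (-0.94 to -0.60). With the length trend taken out, the LAMC1 value was 0.06 (edgeR adjusted p = 0.869) and that of LAMB1 1.37 (adjusted p = 0.000181).

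LAMC1 and AGRN were the genes whose breeds did not overlap at high loin weight, 2 of 8 against 48.7% of all genes, with 24.0% of all genes higher and 24.6% lower in Hampshire. For AGRN every Hampshire pig (13.0 to 17.7 CPM) was above every Pietrain pig (7.60 to 10.3 CPM), though its log2 fold change of 0.79 (SE 0.428) was not called (edgeR adjusted p = 0.144). With the length trend taken out it was 1.24 (adjusted p = 0.0154), and LAMA4 (1.14, adjusted p = 0.00152) and NID2 (1.02, adjusted p = 0.00598) passed the threshold too.

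The genes that work with the listed ones were taken from lists by function. Of 8 basement membrane collagens, 4 were tested in Hampshire and 0 were DEGs by edgeR, with a median log2 fold change of 0.47. COL4A1, a chain of the collagen IV network, stood at 137 ± 33.8 CPM with low and 208 ± 89.4 CPM with high loin weight (SD, n = 3 each; log2 fold change 0.61, SE 0.317, edgeR adjusted p = 0.177). COL4A2, its partner in the same trimer, stood at 109 ± 28.5 and 204 ± 81.4 CPM (log2 fold change 0.91, SE 0.314, edgeR adjusted p = 0.0613) and was called by DESeq2 (adjusted p = 0.0151). High pig 10, the highest for 5 of the listed genes, was also the highest for COL4A1 (305 CPM) and COL4A2 (286 CPM), and without it their log2 fold changes were 0.22 and 0.57. COL4A1 was 0.41 without low pig 1, and COL4A2 passed the threshold without high pig 8 (edgeR adjusted p = 0.0221). With the length trend taken out, edgeR called both, at 1.03 (adjusted p = 0.0408) and 1.34 (adjusted p = 0.0167).

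Of 18 other secreted basement membrane proteins, 17 identifiers were tested in Hampshire, 2 of them for SPARC, and 8 rose and 3 fell, against 26.6% of all genes called, with a median log2 fold change of 0.79. FBLN2, a fibulin that binds laminin and nidogen, rose from 18.4 ± 3.03 to 45.8 ± 14.5 CPM (SD, n = 3 each; log2 fold change 1.31, SE 0.249, edgeR adjusted p = 0.00811). VWA1, a partner of perlecan, rose from 13.4 ± 0.594 to 26.6 ± 6.30 CPM (0.98, SE 0.207, adjusted p = 0.0117), and was not called without low pig 3 (adjusted p = 0.0545). NTN4, a netrin that binds the gamma chains of laminin, fell from 44.5 ± 7.06 to 21.7 ± 4.24 CPM (-1.04, SE 0.191, adjusted p = 0.00729), but with the length trend taken out the value was -0.52 (adjusted p = 0.137).

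Of 15 receptors for laminin and collagen, 14 were tested in Hampshire, where 1 rose and 3 fell, a share near the 26.6% of all genes called, with a median log2 fold change of -0.17. DAG1, dystroglycan, which binds laminin, perlecan and agrin on the fibre surface, had 150 CPM or more in low pigs and under 100 CPM in high pigs: 79.1, 84.8 and 96.1 CPM in pigs 8, 9 and 10. Its means were 167 ± 14.7 and 86.7 ± 8.61 CPM (SD, n = 3 each; log2 fold change -0.95, SE 0.161, edgeR adjusted p = 0.00592), and it was still called with the length trend taken out and in each fit that left out a pig. ITGB1, the integrin beta 1 subunit, fell from 191 ± 6.47 to 124 ± 20.3 CPM (-0.62, SE 0.165, adjusted p = 0.0254), and ITGA1, a collagen-binding partner of it, from 9.49 ± 0.589 to 4.72 ± 0.401 CPM (-1.01, SE 0.196, adjusted p = 0.00887). Both integrin calls were lost with the length trend taken out (-0.25, adjusted p = 0.405, and -0.49, adjusted p = 0.148) and in the fit over all pigs (adjusted p = 0.0653 and 0.0509). ITGB1 also lost its call without low pig 2 or 3 or high pig 9 or 10 (log2 fold change -0.79 to -0.58 over the 6 fits, adjusted p up to 0.0861). CD151, a tetraspanin that binds laminin receptors of the integrin family, was the receptor that rose (0.71, SE 0.207, edgeR adjusted p = 0.0361), named here because it was the only one.

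Dystroglycan binds laminin through a sugar chain. Of 16 genes for making this chain, 13 identifiers were tested in Hampshire, where 2 rose and 1 fell, near the 26.6% of all genes called. Their median log2 fold change was 0.02. The 2 that rose, DPM2 (0.94, SE 0.205, edgeR adjusted p = 0.013) and DPM3 (1.2, SE 0.264, edgeR adjusted p = 0.0133), encode subunits of the enzyme that makes the mannose donor for the chain. Neither was called with the length trend taken out (adjusted p = 0.0687 and 0.0551) or without low pig 3 (adjusted p = 0.0628 for both). DPM1, another subunit of this enzyme, was not called (0.01, SE 0.167, edgeR adjusted p = 0.959). Of 12 genes for agrin receptors and the neuromuscular junction, 7 were tested and 0 were DEGs in Hampshire, against 26.6% of all genes. Their median log2 fold change was -0.47, against 0.03 for all genes tested. The acetylcholine receptor subunits CHRNB1 (0.16, SE 0.208, edgeR adjusted p = 0.59) and CHRNE (0.57, SE 0.479, edgeR adjusted p = 0.403) are named as those with the most counts. They were the only 2 of the 7 above 0, where 6309 of all 12228 genes tested were above 0. The others of the 7 were below 0, down to -2.75 for CHRNA1 (SE 1.06, edgeR adjusted p = 0.0829).

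In Pietrain, 0 genes of any of these lists were DEGs by edgeR, as for all genes tested. The median log2 fold changes there were 0.49 for the collagens, 0.36 for the other secreted proteins and 0.07 for the receptors, and the directions of single genes were not called.

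**Figure D4:**
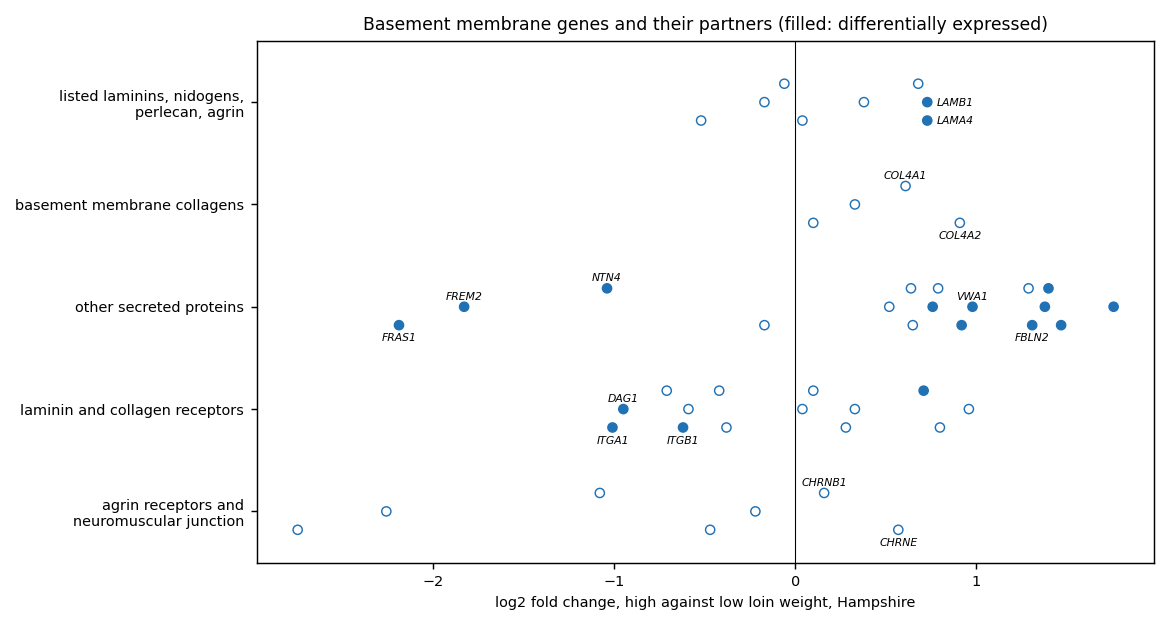
Log2 fold change, high against low loin weight in Hampshire (horizontal axis), of each tested gene among the 8 listed genes, the collagens, the other secreted proteins, the receptors and the agrin and junction genes, 1 point per identifier; filled points are DEGs, and the vertical offset within a row only separates points. The secreted proteins lie mostly to the right of 0, and DAG1, ITGA1 and ITGB1 to the left.

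Markers of other cell types were summed per pig, since a bulk sample cannot tell fewer cells of a type from less RNA per cell. In Hampshire the fibroblast markers (9 of 10 found, none at 0 in all libraries) summed to 763 to 1647 CPM with low and 1982 to 5070 CPM with high loin weight, and 6 of the 9 tested were called higher. Endothelial markers (9 of 12 found) summed to 193 to 224 CPM with low and 239 to 292 CPM with high loin weight, with 1 of 9 called higher. Markers of smooth muscle and pericytes (9 of 10 summed, without DES, which muscle fibres express) summed to 219 to 300 CPM and 301 to 444 CPM, with 2 of 10 tested called higher. Of the other markers tested, 2 of 9 for macrophages and 3 of 5 for adipocytes were called higher, and 1 of 5 for adipocytes lower. For Schwann cells 0 of 6, for satellite cells 0 of 4 and for blood 0 of 3 were called. Among 6 muscle fibre markers, 2 were called higher and 2 lower. Over all genes tested in Hampshire, 26.6% were called, and 12.0% were called higher.

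In Hampshire, the sums for fibroblasts, endothelial cells and smooth muscle with pericytes were higher in each high pig than in each low pig. LAMA4 and LAMB1 separated the groups in this way, as did 22.4% of all genes tested. So did the sums for macrophages (51.7 to 130 CPM with low, 153 to 226 CPM with high loin weight) and adipocytes (203 to 218 against 222 to 305 CPM). Of 9 listed adipocyte markers only 5 were found. Their sum held PLIN4 (mean 89.1 CPM over all pigs), which fell (log2 fold change -1.08, edgeR adjusted p = 0.00629), against 3 called higher. The part of these cell types in the LAMA4 and LAMB1 results was not tested. In Pietrain the fibroblast sums (976 to 1625 CPM against 860 to 2333 CPM), the endothelial sums (89.8 to 240 CPM against 136 to 230 CPM) and the sums for smooth muscle and pericytes (168 to 292 CPM against 158 to 258 CPM) overlapped between low and high loin weight. Low pig 5, the lowest Pietrain pig for 5 of the 8 genes, had the lowest endothelial sum of all 13 pigs. Hampshire low pig 2, the highest for AGRN, also had the highest sum of Schwann cell markers (69.2 CPM, against 26.8 to 46.0 CPM in the other 12 pigs) and of the other agrin and junction genes (46.5 CPM, against 9.50 to 28.1 CPM). The last 2 lists share ERBB3, and their part in its AGRN level was not tested.

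**Figure D5:**
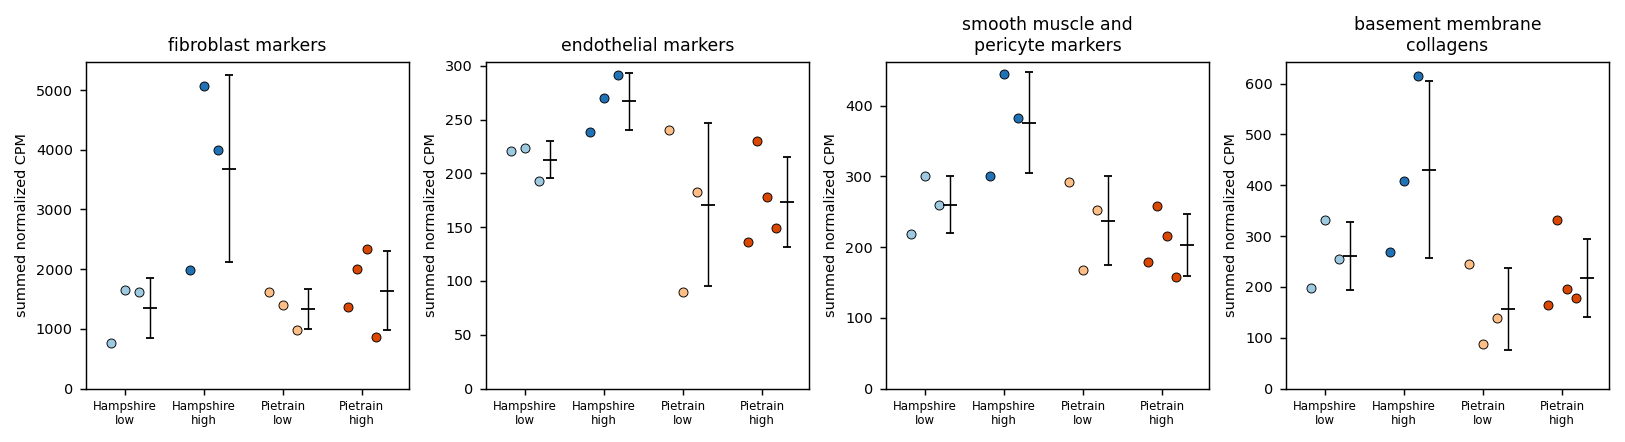
Summed normalized CPM (vertical axis, from 0) of markers of fibroblasts, endothelial cells and smooth muscle with pericytes, and of the basement membrane collagens, 1 point per pig with mean and SD per group. In Hampshire the marker sums of the first 3 panels do not overlap between low and high loin weight, while the collagen sums do.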

How the data were processed

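Raw counts of reads per Ensembl gene were deposited by the authors, 1 table per breed, with 1 column per pig. Libraries (TruSeq RNA v2, from total RNA) were read in 101 single-end cycles and 4 technical repetitions. The kit keeps no strand. Per the labels, the submitters' processing notes name FastQC, STAR, RSEM, DESeq2 and the build Sscrofa10.2; versions and settings of FastQC, STAR and RSEM are not given in the sources used here, and the study's methods give DESeq2's version and thresholds. Although RSEM is named, the deposited values were whole numbers and were used as counts. The authors also deposited, per breed, a table of their DESeq2 comparison (fold changes, statistics and p-values), which was not used except for symbols and for coordinates, which are other values than measurements.

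Symbols came from those tables (7066 identifiers) and a RefSeq name table of another assembly (6102), 13168 of 25322 in all, the latter for names only. All columns could be assigned to a pig. Pigs of a group were compared by chi-square per degree of freedom over genes (21.9 to 128 over 15 pairs), so all counted as separate samples. Levels are CPM from 1 TMM scaling over the 13 pigs. No exon lengths were at hand, so levels of different genes were not compared.

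The main test was edgeR 4.0.16 in R 4.3.3 (TMM, filterByExpr by group, glmQLFit, glmQLFTest, Benjamini-Hochberg over all genes tested), within each breed as in the study's methods, and in 1 fit over all pigs for the comparisons of breeds and for the difference of effects, which had no fold threshold. SEs are the absolute log2 fold change divided by the square root of F. Values per pig were compared by exact permutation tests on log2(CPM + 0.5). Of the 4 ratios planned, those with LAMA2 and LAMA5 were not computed, leaving 4 tests in place of 8. All 8 genes passed the filter in every comparison. The fits were tested on simulated data.

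Alternatives were DESeq2 1.42.0, its size factors in edgeR, no filter, at least 10 counts in every pig, no fold threshold, 1 fit over all pigs, removal of a loess trend (span 0.5) over gene span, and leaving out each pig. Named genes were all members and, from each partner list, up to 3 DEGs of Hampshire with the smallest adjusted p, or where there was none the 2 tested genes with the highest mean CPM. Some genes that this rule names are not reported here. The members and the lists were chosen with earlier results of these data known. Python 3.11.15 and matplotlib 3.10.9 drew the figures.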

Additional observations from a re-analysis of the deposited data

Results flagged for a closer look

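In Pietrain pigs with high loin weight, the log2 ratio of NID1 to NID2 reads in pig 6 was -1.02, apart from the other 3 pigs at -1.63, -1.73 and -1.64. The gap to the nearest pig was 0.853 of the range of the group, above Dixon's 95% critical value for 4 pigs. Of 10 values checked in this group of 4, this was the 1 past that value, and chance marks about 1 in 20.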

How the results depend on the processing

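No paired analysis was possible because the pigs were unrelated and each gave 1 sample. An equal pig number in the 2 breeds does not mark the same animal. DESeq2 gave 1 DEG in Pietrain, 1242 genes for the difference between breeds and 2 of the listed genes for breeds at low loin weight; that last count was also 2 with at least 10 counts in every pig and with the length trend taken out. In the fit over all pigs, 0 listed genes were DEGs in Hampshire. Without a filter, 1 listed gene was called for breeds at high loin weight. The fits with the length trend taken out held only genes with coordinates, from 9975 identifiers, and so left out NID1. Their counts of genes called are thus not on the same set as the main fits, and their share of all genes called is not given here. Taking out the length trend left 1907 DEGs in Hampshire and 233 genes for the difference, gave 4 listed genes for breeds at high loin weight, and turned the direction of LAMC1 (0.00897) and HSPG2 (0.158) in Hampshire, of NID2 for the difference (0.468), of LAMA4 (0.0843) and LAMC1 (0.116) between breeds at low and of LAMC1 (0.056) and HSPG2 (0.388) at high loin weight. The causes were not tested. Leaving out 1 pig gave 1224 to 3049 DEGs and 0 to 3 listed genes in Hampshire, 379 to 1052 genes for the difference, 109 to 2611 DEGs and 0 to 2 listed genes between breeds at low loin weight, and 0 to 2 listed genes at high loin weight. The Pietrain log2 difference of NID1 to NID2 then ran from -0.126 to 0.679, turning without low pig 5. Directions also turned as single pigs were left out for HSPG2 (-0.571 to 0.157) and AGRN (-0.335 to 0.777) in Hampshire, LAMC1 in Pietrain (-0.0731 to 0.461), NID1 (-0.604 to 0.506), NID2 (-0.346 to 0.19) and AGRN (-1.38 to 0.117) for the difference, LAMA4 (-0.239 to 0.0933), LAMB1 (-0.014 to 0.306), LAMC1 (-0.322 to 0.225) and NID1 (-0.0362 to 1.1) between breeds at low and HSPG2 (-0.556 to 0.376) at high loin weight, and for the ratios of LAMC1 to LAMB1 in Pietrain (-0.175 to 0.0994) and of LAMA4 to LAMB1 in Hampshire (-0.0763 to 0.0416) and Pietrain (-0.129 to 0.0734). None of the values turned by a left-out pig had been called. Of the other values for single genes under alternatives that kept all pigs, 166 kept direction and side of the threshold, 11 lost it and 9 gained it.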

Other observations

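FRAS1 and FREM2, large secreted proteins of a complex that anchors epithelial basement membranes, were DEGs in Hampshire, lower with high loin weight, and were named after their values were seen. FRAS1 was 10.4, 6.82 and 16.4 CPM in pigs 8, 9 and 10 with high loin weight, and 20.2, 85.8 and 49.5 CPM in pigs 1, 2 and 3 with low loin weight (log2 fold change -2.19, SE 0.497, edgeR adjusted p = 0.0148), a call that was lost without high pig 9 (adjusted p = 0.0538). FREM2 had a log2 fold change of -1.83 (SE 0.572, edgeR adjusted p = 0.0443) and was not called with the length trend taken out (-1.38, adjusted p = 0.0657) or without high pig 8 or any of the low pigs (log2 fold change -2.39 to -1.39 over the 6 fits, adjusted p up to 0.104). Both genes are long, spanning 451993 and 222464 bases on Sscrofa10.2.

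Between breeds at high loin weight, 12 of 16 tested identifiers of the other secreted basement membrane proteins were higher in Hampshire and 1 was lower, against 46.8% of all genes called, with a median log2 fold change of 1.32 against 0.02 for all genes tested. The largest was ECM1 (2.09, SE 0.323, edgeR adjusted p = 0.000221), an extracellular protein that binds perlecan. Of the collagens, COL4A2 was higher in Hampshire (1.34, SE 0.358, edgeR adjusted p = 0.00746). At low loin weight 3 of the 16 were higher and 0 lower, against 17.9% of all genes called there, with 7.84% higher. The 3 were FBLN1 (1.84, SE 0.54, edgeR adjusted p = 0.0341), ECM1 (1.72, SE 0.37, adjusted p = 0.0146) and PXDN (1.31, SE 0.372, adjusted p = 0.0305). Whether these calls between breeds hold with the length trend taken out was not checked.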
